A study of Sus scrofa with 15 samples.

Results

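Genes of lymphocytes and of their granzymes were examined in the testes of neonatal piglets. The listed genes were GZMA, GZMB, CD2, CD3D, CD3E, CD3G, LCK, CD8A, PTPRC and IL7R. They were taken from the deposited gene table by symbol, and the copies of a gene were kept apart and also summed. Of the 10 listed genes, 9 had at least 1 row, and GZMA had 2, which gave 10 rows of 30476 in the table. GZMB had no row under its symbol and was not analysed here.

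RNA was sequenced from the testes of 15 male White-Dutch Landrace piglets, with 3 piglets in each of 5 diet groups and 1 library per piglet. Piglets were fed from postnatal day 2 until day 21 with milk of the sow (Sow), a formula from cow's milk (Milk), a formula from soy (Soy), or the Milk formula with either 17-beta-estradiol at 2 mg/kg/d (M + E2) or genistein at 84 mg/L (M + G). M + E2 served as the positive control for estrogen action, and Milk is the base diet of both M + E2 and M + G. The columns of 1 Sow and 1 Soy library carried no number and are called Sow unnumbered and Soy unnumbered.

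T cells recognize antigen through a receptor whose signal is carried by the CD3 chains and the associated zeta chain, and the kinase LCK starts that signal. Cytotoxic T cells and natural killer (NK) cells store granzymes in granules and release them, with perforin, into target cells. In the testis, T cells are a minor population of the interstitium, where macrophages are the main leukocyte.

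The libraries held 6097552 to 9488579 reads assigned to genes, with a median of 8198038. The depth sets what can be seen of these genes, since 3 reads corresponded to 0.314 to 0.443 CPM (reads of a gene relative to the TMM-scaled library size), and 0 reads in a library allow a level up to that. The labelled tissue was checked against marker lists. Summed Leydig cell genes ranged from 10337 to 24556 CPM and Sertoli cell genes from 1364 to 3439 CPM, against 169 to 283 CPM for 44 other T and NK cell genes. Much of this last sum was S1PR1 (26.0 to 84.2 CPM) and CD247 (13.6 to 58.6 CPM), where CD3E was at 1.99 to 6.20 CPM. Sow 2 stood apart from the other Sow libraries, with summed neutrophil genes at 87.6 CPM against 22.1 and 24.0 CPM. This library was left out of the comparisons, so that Sow has 2 libraries there, and the main results that move with it are given both ways. Milk 2 had the highest summed macrophage genes of all libraries (1107 CPM, against 462 to 692 CPM in the other 14) and the lowest summed Leydig cell genes. Of the 20 macrophage genes 19 were in the table, and LYZ was listed at 0.

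The T cell genes were low, were present in every library, and passed the test in no diet comparison. CD3D encodes the delta chain of CD3 (ENSSSCG00000015093, Sscrofa11.1 chromosome 9, 45640475 to 45644153). Reads of CD3D were 20, 26 and 27 in Sow, 17, 34 and 18 in Milk, 21, 12 and 17 in Soy, 25, 12 and 16 in M + E2, and 16, 20 and 28 in M + G. The groups overlapped, and the highest library was Milk 2. CD3E encodes the epsilon chain (ENSSSCG00000040140, chromosome 9, 45619730 to 45633972). Reads of CD3E were 25, 36 and 24 in Sow, 20, 50 and 16 in Milk, 35, 24 and 19 in Soy, 34, 25 and 22 in M + E2, and 31, 51 and 34 in M + G. Mean CD3E levels lay between 3.13 CPM in Soy and 4.37 CPM in M + G, a narrower range than that between the Milk libraries alone. CD3G encodes the gamma chain (ENSSSCG00000015094, chromosome 9, 45645243 to 45656779) and was listed at 0 reads in all 15 libraries, although CD3D, which has reads in every library, lies 1089 bases away from it. Whether reads of CD3G were counted under another entry was not determined.

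CD2 is an adhesion receptor of T and NK cells (ENSSSCG00000006736, chromosome 4, 103963802 to 103976971). Reads of CD2 were 41, 39 and 68 in Sow, 27, 57 and 33 in Milk, 42, 25 and 27 in Soy, 54, 39 and 27 in M + E2, and 30, 46 and 42 in M + G. The mean was highest in Sow at 6.45 ± 1.47 CPM (SD, n = 3) and lowest in Soy at 3.78 ± 1.52 CPM (n = 3). The fitted log2 fold change of Soy relative to Sow was -0.87 ± 0.42 (SE), with adjusted p = 0.335 in edgeR's quasi-likelihood test.

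CD8A is a chain of the coreceptor of cytotoxic T cells (ENSSSCG00000008217, chromosome 3, 57999228 to 58029768). Reads of CD8A were 19, 17 and 26 in Sow, 18, 42 and 9 in Milk, 15, 14 and 17 in Soy, 24, 10 and 16 in M + E2, and 13, 26 and 17 in M + G. Milk held both the highest and the lowest library. IL7R is the receptor through which resting T cells receive the survival signal of interleukin 7 (ENSSSCG00000016832, chromosome 16, 21300141 to 21330156). Reads of IL7R were 14, 13 and 21 in Sow, 10, 23 and 6 in Milk, 14, 16 and 9 in Soy, 16, 5 and 13 in M + E2, and 8, 19 and 11 in M + G. The Milk, M + E2 and M + G libraries of IL7R overlapped with Sow, and the Soy libraries lay just below it, at most 1.84 CPM against 1.88 CPM.

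LCK (ENSSSCG00000003608, chromosome 6, 88719886 to 88745922) had the lowest unadjusted p among the T cell genes. Reads of LCK were 32, 33 and 37 in Sow, 33, 56 and 18 in Milk, 24, 19 and 15 in Soy, 37, 25 and 27 in M + E2, and 20, 56 and 32 in M + G. The 3 Soy libraries lay between 1.71 and 3.16 CPM, below the 3 Sow libraries at 4.30 to 4.82 CPM, and overlapped with Milk. LCK had a log2 fold change of -0.99 ± 0.44 (SE) in Soy relative to Milk, with an unadjusted p = 0.0414 and an adjusted p = 0.999 in edgeR's quasi-likelihood test. Relative to Sow it was -0.93 ± 0.48 with adjusted p = 0.347.

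PTPRC encodes CD45, the phosphatase on the surface of all leukocytes (ENSSSCG00000010908, chromosome 10, 21482984 to 21601627). It took 62.8% of all reads on these genes. Reads of PTPRC were 230, 199 and 258 in Sow, 200, 430 and 260 in Milk, 220, 249 and 360 in Soy, 251, 212 and 325 in M + E2, and 194, 409 and 279 in M + G. The Sow libraries were close together (30.3 ± 1.08 CPM, n = 3), the formula groups had means from 32.4 to 38.4 CPM, and all groups overlapped with Sow. Because of its depth PTPRC was the best determined gene here. The 95% interval of the log2 fold change relative to Sow was -0.60 to 0.63 in M + E2, -0.56 to 0.67 in M + G, -0.55 to 0.67 in Soy and -0.35 to 0.88 in Milk, so that a 2-fold change lies outside each of these intervals. For CD3E the intervals were wider, for example -0.96 to 1.12 in M + E2 relative to Sow.

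**Figure D1:**
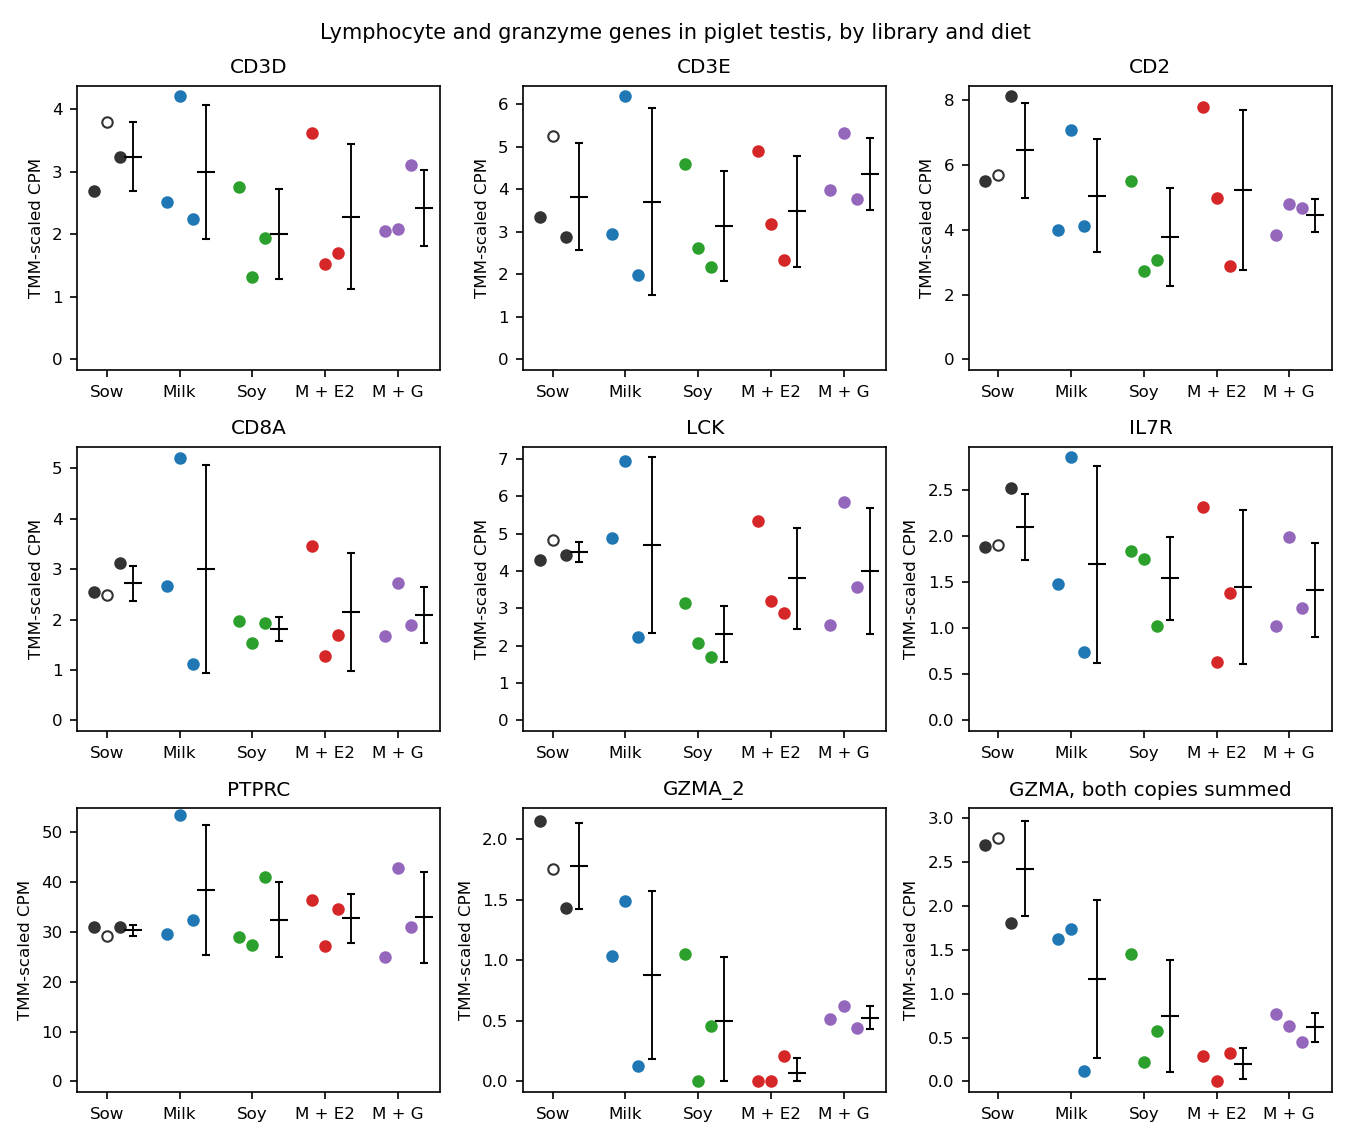
Levels of 7 lymphocyte genes, of GZMA_2 and of both GZMA copies summed, in TMM-scaled CPM (y axis) for the 15 libraries by diet (x axis). Each point is a library, the open point is Sow 2, and the bars give the mean and SD of the 3 libraries, with the lower bar ended at 0. Milk 2 is the highest library in 6 of the 7 lymphocyte genes, and summed GZMA is higher in each Sow library than in any formula library.

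GZMA was the 1 gene of the list that passed the test. Granzyme A is a serine protease of the granules of cytotoxic T and NK cells. The table holds 2 copies, GZMA_1 (ENSSSCG00000016902) and GZMA_2 (ENSSSCG00000016903). RefSeq places a pair of GZMA entries next to each other on chromosome 16 of Sscrofa11.1, at 34262495 to 34272084 and at 34282160 to 34290422, and which entry is which copy was not determined. Short reads could be split between near-identical copies, so the copies are uncertain on their own and the sum is given beside them.

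GZMA_2 held 73.9% of the GZMA reads. Its reads were 16, 12 and 12 in Sow, 7, 12 and 1 in Milk, 8, 0 and 4 in Soy, 0, 0 and 2 in M + E2, and 4, 6 and 4 in M + G. All Sow libraries had more GZMA_2 reads than any library of Soy, M + E2 or M + G, and Milk overlapped with Sow. GZMA_1 had at most 7 reads in a library, which was Sow 2, and did not pass the filter on low counts. Its reads were 4, 7 and 3 in Sow, 4, 2 and 0 in Milk, 3, 2 and 1 in Soy, 2, 0 and 1 in M + E2, and 2, 0 and 0 in M + G. The copies thus had their highest library in the same group.

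Summed over both copies, GZMA was highest in Sow at 2.42 ± 0.542 CPM (SD, n = 3 in each group). Milk had 1.16 ± 0.90 CPM and Soy 0.745 ± 0.632 CPM. The lower groups were M + G at 0.614 ± 0.163 CPM and M + E2 at 0.203 ± 0.176 CPM. The lowest Sow library had 1.80 CPM and the highest of the 12 formula libraries 1.74 CPM, so that Sow and formula libraries did not overlap. This was so for 7.57% of all 15634 genes tested, and it is given as a description with no test. The summed neutrophil genes, 7 of 10 in the table, were split in the same way, at 22.1 CPM or more in Sow and 20.8 CPM or less in the formula libraries. Most of the Sow sum was S100A8 and S100A12. Only S100A12 was itself split so, at 5.87 CPM or more in Sow and 2.98 CPM or less elsewhere. The 6 tested genes of this list had a median log2 fold change of -0.09 in M + E2 relative to Sow. Their part in the GZMA difference was not tested. In the order of these means Milk, Soy and M + G overlapped with each other, and so did Milk and Soy with M + E2, while all M + G libraries (0.445 CPM or more) lay above all M + E2 libraries (0.319 CPM or less), an order found in 9.12% of all genes and not tested.

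Relative to Sow, GZMA_2 fell in M + E2, with 2 reads over 3 libraries against 28 reads over 2. The ratio of the pooled levels was 0.0467, which is 21.4-fold lower, with a 95% exact interval of 5.40-fold to 185-fold for counting error only. The fitted log2 fold change was -4.28 ± 1.13 (SE) with adjusted p = 0.0440 in edgeR's quasi-likelihood test, and -4.20 with adjusted p = 0.0102 when Sow 2 was put back. For the summed copies, 5 reads stood against 35, which is 10.7-fold lower (4.18-fold to 35.0-fold), with a log2 fold change of -3.41 ± 0.92 and adjusted p = 0.0449. GZMA_2 was the 1 member called of the 8 rows tested in this comparison, and 5% of all genes were called in either direction, 3.56% as lower. With all 3 Sow libraries in the fit, 18.1% of all genes were called. GZMA_2 had 16, 12 and 12 reads in Sow unnumbered, Sow 3 and Milk 2, and 8 or fewer in the other fitted libraries. Its row thus passed the count filter largely through Sow, the group where it was highest. When only the groups compared were fitted, GZMA_2 had no value in any comparison without Sow. The call had little margin. The adjusted p of GZMA_2 rose to 0.0558 without Soy 2, to between 0.0682 and 0.133 without an M + E2 library, to between 0.0535 and 0.0601 without an M + G library, and to 0.0537 with a lower count filter.

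In the other diets GZMA_2 was also lower than in Sow, but did not pass the test. The log2 fold change of GZMA_2 was -1.87 ± 0.86 in Soy (edgeR adjusted p = 0.333), -1.76 ± 0.85 in M + G (adjusted p = 0.224) and -1.06 ± 0.81 in Milk (adjusted p = 0.564). The M + G difference passed when only M + G and Sow were fitted (adjusted p = 0.0361) and in edgeR's exact test (adjusted p = 0.0131). Since these comparisons share the Sow libraries, their common direction is not independent.

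Relative to Milk, the diet without added estradiol, GZMA_2 had a log2 fold change of -3.22 ± 1.18 in M + E2 (edgeR adjusted p = 0.223). Milk held libraries with 7, 12 and 1 reads, of which Milk 3 lay within the M + E2 range. Without Milk 3 the log2 fold change was -3.75 and the adjusted p 0.0324, while without Milk 2 they were -2.58 and 0.521 and without Milk 1 they were -3.09 and 0.552. Without an M + E2 library the adjusted p was 0.329 to 0.497. Soy relative to M + E2 gave a log2 fold change of 2.41 ± 1.28 for GZMA_2, with an interval of -0.34 to 5.15, so that no difference was detectable at this depth.

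**Figure D2:**
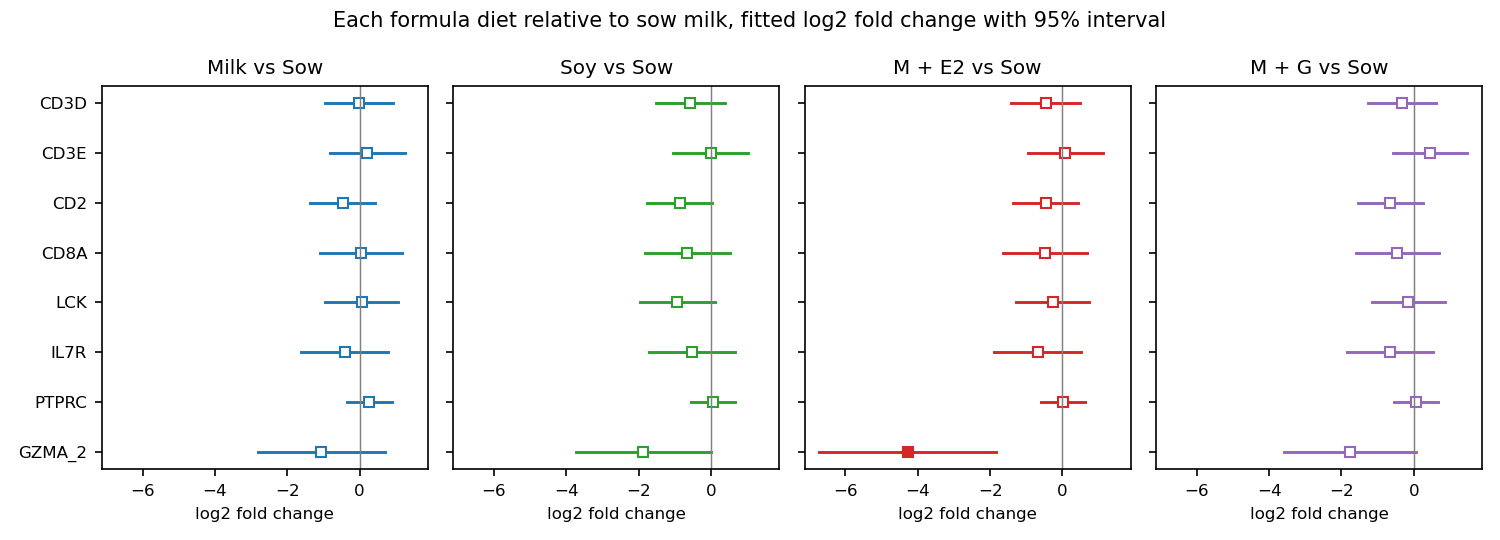
Fitted log2 fold change (x axis) of 8 gene rows in each formula diet relative to Sow, as squares with 95% intervals, from edgeR's fit of 14 libraries. The filled square, GZMA_2 in M + E2 at -4.28, is the call at adjusted p of 0.05 or less and a 2-fold change, and the open squares were not called.

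Outside M + E2 relative to Sow, 0 of the 8 rows were called, as were few of all genes. Genes called were 0.0576% of all in M + G relative to Sow, 0.0128% in Soy relative to Sow, 0.0192% in Milk relative to Sow, 0.147% in Soy relative to M + E2, and 0% in each of M + E2, M + G and Soy relative to Milk, where DESeq2 called 122, 2 and 6 genes. In the test of any difference among the 5 diets 0.064% of all genes were called, and GZMA_2 had the lowest p of these rows (edgeR adjusted p = 0.241). At an unadjusted p under 0.05, 1 row stood in Soy relative to Milk (LCK), and 1 each in Soy relative to Sow, M + E2 relative to Milk and the test of any diet (GZMA_2), and 0 in the other comparisons. Of all genes, the share at such a p was 2.44% in Soy relative to Milk, 2.6% in M + G relative to Milk, 17.7% in M + E2 relative to Milk, 13% in Soy relative to M + E2 and 18.1% in the test of any diet. Relative to Sow the share was 33.8% in M + E2, 23.6% in M + G, 15% in Soy and 12.1% in Milk. DESeq2 called 0 rows, but it gave GZMA_2 no adjusted p in 6 of the 8 comparisons between diets, among them all 4 relative to Sow, so its 0 is no test of GZMA_2 there.

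Without GZMA, the median log2 fold change of the 7 remaining rows relative to Sow was -0.46 in M + E2, -0.33 in M + G, -0.58 in Soy and 0.04 in Milk, where the medians of all genes lay between 0.00 and 0.02. In Soy relative to Milk all 8 rows were below 0, with a median of -0.47, where the median of all genes was 0.01. Milk 2 was the highest of all libraries in 6 of the 7 rows without GZMA. The rows are not independent, since the T cell genes varied together between libraries. Rows whose libraries lay wholly below the 2 Sow libraries numbered 4 in Soy (GZMA_2, LCK, CD8A and IL7R), against 18.9% of all genes. They numbered 2 in M + G (GZMA_2 and CD2), against 26.4%, and 1 in M + E2 (GZMA_2), against 28.6%. Only CD3E, in M + G, lay wholly above Sow, against 27.5% of all genes, and it overlapped once Sow 2 was added at 5.26 CPM.

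The 6 T cell genes CD2, CD3D, CD3E, LCK, CD8A and IL7R were summed as a level of T cell RNA. In bulk tissue fewer T cells and less RNA per T cell cannot be told apart. The sum was 20.3, 23.9 and 24.3 CPM in Sow, 18.5, 32.5 and 12.5 in Milk, 19.9, 12.1 and 11.9 in Soy, 27.5, 14.8 and 12.9 in M + E2, and 15.1, 22.8 and 18.2 in M + G. Formula groups spread widely and Sow did not, with an SD of 10.3 CPM in Milk, 7.91 in M + E2, 4.56 in Soy and 3.85 in M + G against 2.21 in Sow. The single libraries Milk 2 and M + E2 1 lay above all Sow libraries, and Soy alone had all its libraries below them. The margin was narrow, at 19.9 CPM in Soy unnumbered against 20.3 CPM in Sow unnumbered, with 151 reads in each. In Soy 18.9% of all genes lay wholly below the 2 Sow libraries of the fit. The 15 pairs of these 6 genes had Spearman correlations across the 15 libraries between 0.589 and 0.879 (median 0.689), given as a description of genes that share libraries and depth.

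GZMA was also set against this sum. Per 100 reads of the 6 T cell genes, GZMA had 13.2, 11.6 and 7.39 reads in Sow, 8.80, 5.34 and 1.00 in Milk, 7.28, 1.82 and 4.81 in Soy, 5.08, 2.75 and 2.44 in M + G, and 1.05, 0 and 2.48 in M + E2. Pooled over libraries, Sow had 10.4 such reads, Milk 5.34, Soy 4.93, M + G 3.20 and M + E2 1.17. All libraries of Soy, M + G and M + E2 were below all Sow libraries, and of the formula libraries only Milk 1 overlapped with Sow. No share over other genes was computed for this order. M + E2 1 had 190 reads of the T cell genes, more than Sow unnumbered with 151, but 2 GZMA reads against 20. M + E2 2 and M + E2 3 had 116 and 121 reads of the T cell genes, fewer than any Sow library, with 0 and 3 GZMA reads. The part of the T cell level in the GZMA difference was not tested.

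**Figure D3:**
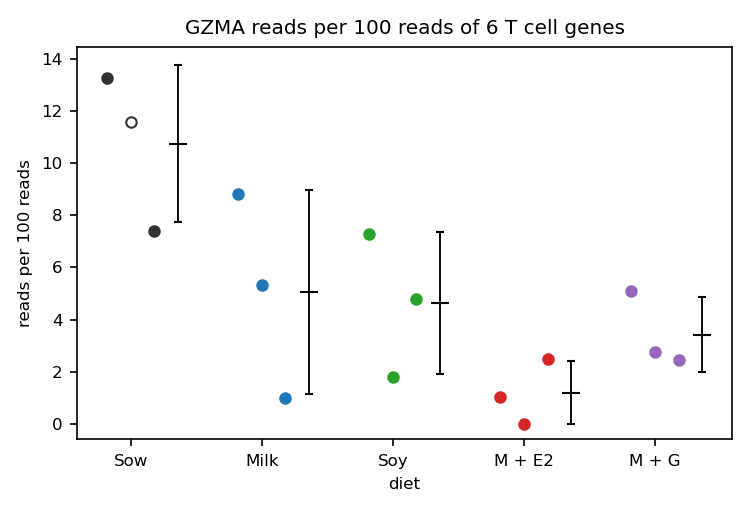
GZMA reads of both copies per 100 reads of CD2, CD3D, CD3E, LCK, CD8A and IL7R (y axis) in the 15 libraries by diet (x axis). Points are libraries, the open point is Sow 2, and bars give mean and SD with the lower bar ended at 0. Sow lies at 7.39 to 13.2, Milk at 1.00 to 8.80, Soy at 1.82 to 7.28, M + G at 2.44 to 5.08 and M + E2 at 0 to 2.48.

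Across the 15 libraries 3 relations were tested. PTPRC and the summed macrophage genes were related (Pearson r = 0.834, permutation p = 0.0015, adjusted 0.0045; Spearman rho = 0.514, permutation p = 0.0530, adjusted 0.0795). Without Milk 2 and M + G 2, the libraries farthest from the median of PTPRC, r was 0.482. These share a number, and same-numbered Milk and M + G libraries deviated together, while the permutations treat all 15 libraries as independent. Milk 2, M + G 2 and Soy 3 had the highest PTPRC and also the highest summed peritubular myoid genes. The myoid sums were 3244, 2381 and 4016 CPM in that order, against at most 989 CPM in the other libraries. This was noticed after the values were seen, and its part in the relations was not tested. With the summed T cell genes PTPRC had r = 0.523 (permutation p = 0.0441, adjusted 0.0451) and rho = 0.264 (permutation p = 0.339, adjusted 0.339), and r was -0.01 without Milk 2 and M + G 2, so this relation rests on those libraries. Summed GZMA and the T cell genes had r = 0.523 (permutation p = 0.0451, adjusted 0.0451) and rho = 0.611 (permutation p = 0.0174, adjusted 0.0521), and r was 0.737 without Milk 2 and M + E2 1. Within diets, after subtracting the group means, r was 0.850, 0.618 and 0.527 in that order of relations.

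**Figure D4:**
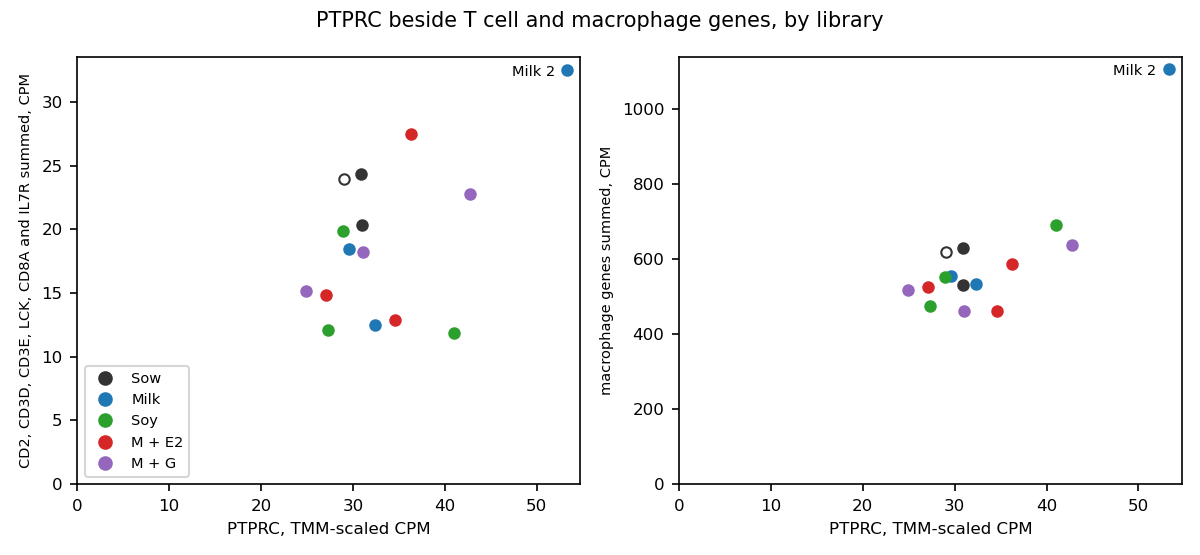
PTPRC in TMM-scaled CPM (x axis) beside the sum of 6 T cell genes and the sum of macrophage genes in CPM (y axes), 1 point per library, coloured by diet, with Sow 2 open. Milk 2 is at the upper right of both plots, at 53.3 CPM of PTPRC, 32.5 CPM of T cell genes and 1107 CPM of macrophage genes.

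Other genes of T and NK cells were read from a list of 50, of which 44 were in the table and 34 passed the filter. Of these 34, 0 were called in any comparison of the 14 libraries. At an unadjusted p under 0.05 M + E2 had 7, M + G 5, Soy 4 and Milk 1 relative to Sow. Relative to Milk, M + E2 had 2, M + G 1 and Soy 2. There were 4 in Soy relative to M + E2 and 3 in the test of any diet. The 7 of 34 in M + E2 relative to Sow stand against 33.8% of all genes, the 5 in M + G against 23.6%, the 4 in Soy against 15% and the 1 in Milk against 12.1%. For M + E2, M + G and Soy relative to Milk these shares were 17.7%, 2.6% and 2.44%, for Soy relative to M + E2 13%, and for any diet 18.1%. The median log2 fold change of the 34 genes in M + E2 relative to Sow was -0.22. Most of the 7 went the other way, with log2 fold changes above 0 for BCL11B (1.48), CD27 (1.10), RUNX3 (0.91), LEF1 (0.84) and TCF7 (0.69). Only GZMH (-1.50) and KLRK1 (-1.49) of the 7 were lower.

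Among the granule genes, GZMH, another granzyme, was also highest in Sow. Reads of GZMH were 19, 36 and 22 in Sow, 11, 14 and 6 in Milk, 8, 3 and 10 in Soy, 12, 8 and 2 in M + E2, and 7, 8 and 1 in M + G. The lowest Sow library (2.56 CPM) was above the highest formula library (1.74 CPM), as for GZMA. Mean GZMH was 0.840 CPM in Soy, 0.990 CPM in M + E2 and 0.616 CPM in M + G, so a low level was not particular to M + E2 and M + G. Without Sow 2 the log2 fold change of GZMH was -1.50 ± 0.69 in M + E2 relative to Sow (edgeR adjusted p = 0.145) and -2.10 ± 0.72 in M + G relative to Sow (adjusted p = 0.142). With Sow 2, its highest library, put back, these were -1.85 (adjusted p = 0.0340) and -2.47 (adjusted p = 0.0261), and GZMH fell in both.

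GZMK, a granzyme of memory T cells, had 9, 4 and 4 reads in Sow, 4, 4 and 5 in Milk, 2, 4 and 4 in Soy, 4, 1 and 4 in M + E2, and 2, 5 and 1 in M + G, and was too low to be tested. PRF1, the pore-forming perforin, had 9, 4 and 7 reads in Sow and 11, 11 and 11 in M + E2, with a log2 fold change of 0.36 ± 0.46 (edgeR adjusted p = 0.606). NKG7, a granule membrane protein, was at 7.63 ± 1.12 CPM in Sow and 7.19 ± 0.972 CPM in M + E2 (SD, n = 3 each), a log2 fold change of -0.24 ± 0.28. Thus PRF1 and NKG7 had no detectable difference between M + E2 and Sow, with intervals of -0.63 to 1.36 for PRF1 and -0.85 to 0.37 for NKG7.

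KLRK1, the activating receptor NKG2D of NK and cytotoxic T cells, had 8, 30 and 17 reads in Sow, 7, 16 and 4 in Milk, 8, 6 and 1 in Soy, 2, 5 and 7 in M + E2, and 6, 14 and 9 in M + G. Sow 2 was its highest library, and its mean was as low in Soy (0.608 CPM) as in M + E2 (0.558 CPM). KLRK1 had a log2 fold change of -1.49 ± 0.68 in M + E2 relative to Sow (edgeR adjusted p = 0.141), and fell by 2.08 on the log2 scale (adjusted p = 0.0257) with Sow 2 put back. CD8B, the partner chain of CD8A, had 2 to 13 reads per library and a log2 fold change of -0.61 ± 0.60 in M + E2 relative to Sow. CD4, the coreceptor of helper T cells that macrophages of several species also carry, was highest in Milk at 9.17 ± 3.61 CPM and had a log2 fold change of -0.89 ± 0.42 in M + E2 relative to Milk (adjusted p = 0.286).

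CD247 and ZAP70 continue the signal of the T cell receptor. CD247 encodes the zeta chain. Its reads were 220, 133 and 175 in Sow, 167, 212 and 231 in Milk, 446, 413 and 293 in Soy, 159, 186 and 128 in M + E2, and 321, 439 and 290 in M + G. All 6 libraries of the isoflavone diets Soy and M + G, at 32.3 CPM or more, were above the other 9, at 29.6 CPM or less. That order, noticed after the values were seen and not tested, was found in 0.0064% of all genes, which is 1 gene. CD247 did not pass the main test. In Soy relative to M + E2 it had a log2 fold change of 1.24 ± 0.25 (edgeR adjusted p = 0.0842), and in the test of any diet an adjusted p = 0.186, or 0.0431 with Sow 2 put back. CD247 was called in Soy relative to M + E2 in 4 alternatives (without Soy 3, with no filter, with DESeq2 and with the exact test), and for any diet in 5. CD3E, which acts in the same receptor, had a log2 fold change of -0.09 ± 0.43 in Soy relative to M + E2. ZAP70, the kinase that binds the zeta chain, had 15, 19 and 19 reads in Sow and 33, 33 and 24 in M + E2, a log2 fold change of 0.76 ± 0.39 (adjusted p = 0.182).

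**Figure D5:**
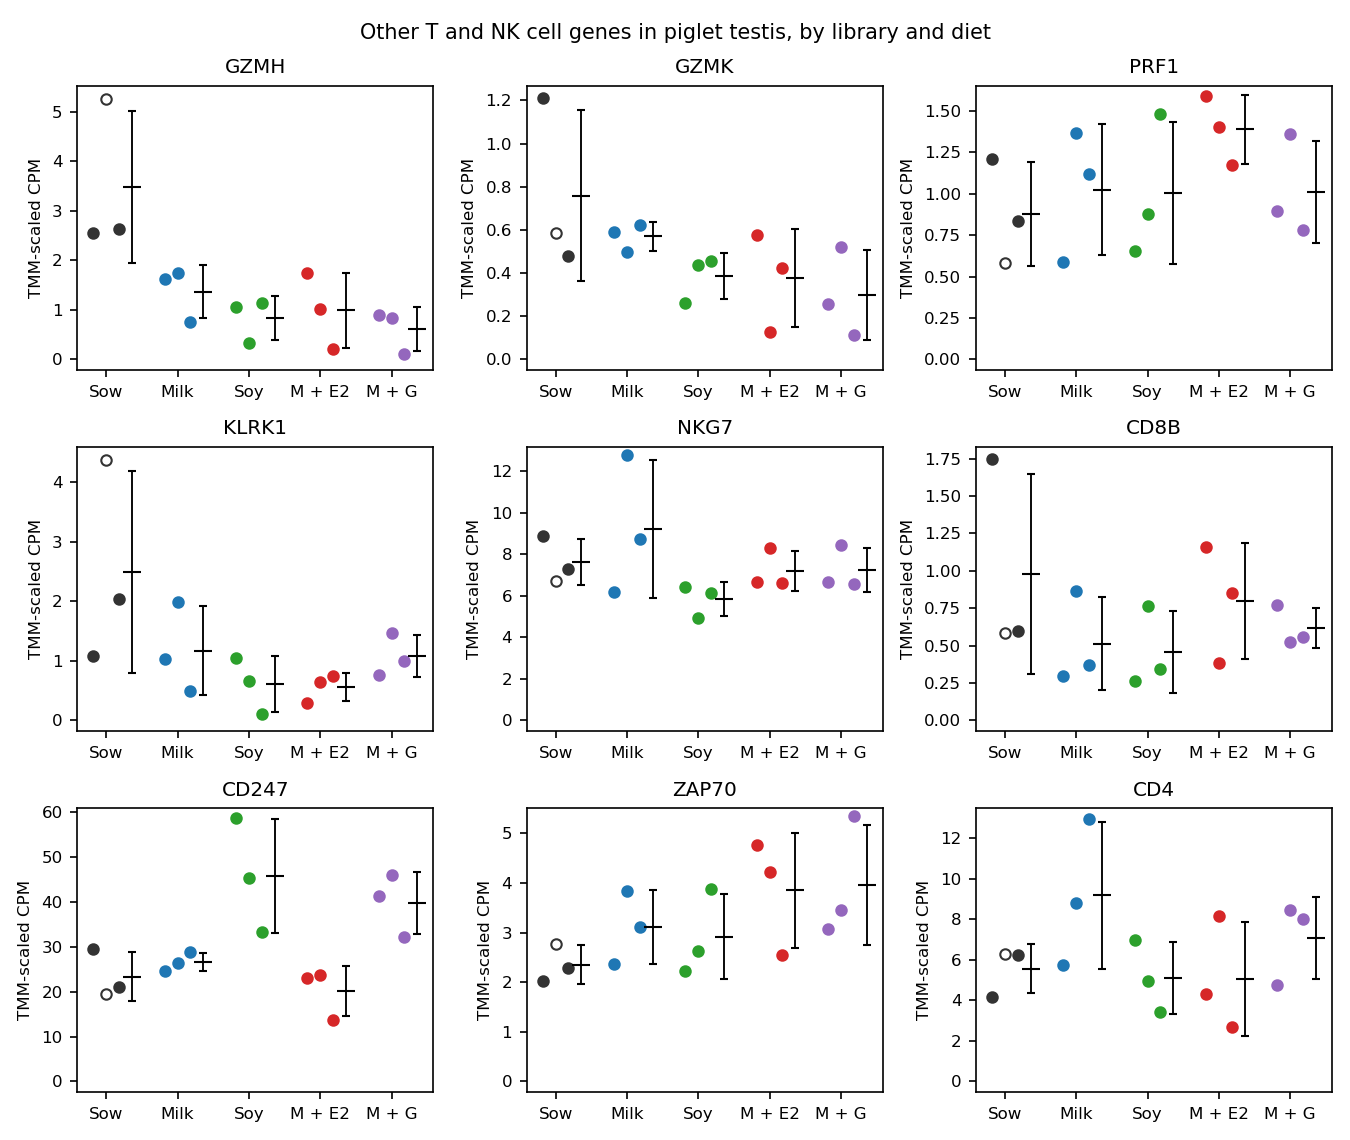
Levels of 9 further T and NK cell genes in TMM-scaled CPM (y axis) for the 15 libraries by diet (x axis). Points are libraries, the open point is Sow 2, and bars give mean and SD. GZMH is higher in each Sow library than in any formula library, and CD247 is at 32.3 CPM or more in Soy and M + G and at 29.6 CPM or less elsewhere.

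With all 3 Sow libraries, 5 of 33 genes of the T and NK list were called in M + E2 relative to Sow, against 18.1% of all genes in that fit. GZMH, KLRK1 and XCL1, a chemokine of NK and CD8 T cells (log2 fold change -1.50, edgeR adjusted p = 0.0378), fell. Without Sow 2, XCL1 had -1.20 (adjusted p = 0.157), and its mean was as low in Soy (0.555 CPM) as in M + E2 (0.619 CPM). BCL11B (1.59, adjusted p = 0.0137) and RUNX3 (1.08, adjusted p = 0.0129), transcription factors of T cell development that other tissues also use, rose. Without Sow 2 they had 1.48 (adjusted p = 0.0687) and 0.91 (adjusted p = 0.0844). In M + G relative to Sow 2 of 33 were called, against 10.3% of all genes. GZMH fell and CD27, a costimulatory receptor, rose (1.16, adjusted p = 0.0483), and without Sow 2 CD27 had 1.23 (adjusted p = 0.155).

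The summed genes of several marker lists of other cells did not overlap between M + E2 and Sow. Without Sow 2 JCHAIN of plasma cells and STAR of Leydig cells were called lower and SLC4A1 of red cells higher in M + E2 relative to Sow, 1 gene in each list. These lists had 13 of 15, 4 of 6 and 11 of 18 genes in the table. Summed B and plasma cell genes ranged from 155 to 213 CPM in M + E2 and from 216 to 370 CPM in Sow. Most of this sum was CD79A, which overlapped (95.8 to 157 CPM in M + E2, 139 to 253 CPM in Sow). The 12 tested genes of this list had a median log2 fold change of 0.13 in M + E2 relative to Sow. Summed red cell genes overlapped, at 254 to 616 CPM in M + E2 and 507 to 591 CPM in Sow. All M + E2 libraries were above all Sow libraries in the summed Sertoli cell genes (3336 to 3439 against 1846 to 2325 CPM), endothelial genes (768 to 981 against 391 to 551), mast cell genes (213 to 270 against 119 to 155) and platelet genes (99.6 to 112 against 58.1 to 65.6). The summed germ cell genes were also wholly above, at 224 to 289 CPM in M + E2 against 174 to 192 CPM in Sow. Most of the mast cell sum was KIT (187 to 240 CPM in M + E2), which is also on the germ cell list and made most of that sum. The 6 tested germ cell genes had a median log2 fold change of -0.48 in M + E2 relative to Sow. Most of the platelet sum was ITGA2B (91.6 to 103 CPM in M + E2), so these sums are largely those of single genes. All M + E2 libraries were below all Sow libraries in the summed Leydig cell genes (12898 to 13782 against 19176 to 19817 CPM). Such an order was common among single genes. Of all genes tested, 33.6% lay wholly above and 28.6% wholly below the 2 Sow libraries of the fit in M + E2. The part of these lists in the GZMA difference was not tested.

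The genes most like these genes in pattern were ranked by Spearman correlation across the 15 libraries among 12286 genes, as a description with no test. Closest to the sum of all rows, which PTPRC dominates, were IFITM3 (0.964), SLA-DMA (0.936), RAC2 (0.882), TRIM22 (0.875) and PARP9 (0.868). Closest to CD3E alone were CATSPERE (0.864), DNAJC9 (0.839), RPUSD3 (0.821) and C4orf33 (0.796). The first set kept the same 5 genes without Sow 2, and the CD3E set kept CATSPERE and DNAJC9.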

How the data were processed

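Testis RNA of 15 piglets was sequenced. The authors trimmed the reads and mapped them with the CLC Genomics Workbench, first to a curated porcine gene library and then to the Ensembl pig genome build Sscrofa11.1, and deposited counts of reads per gene without normalization. Whether the deposited counts hold all reads was not determined. The number of columns left unused was 0.

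Tests on the counts used edgeR 4.0.16 in R 4.3.3 (TMM, filterByExpr at a minimum count of 10, quasi-likelihood test). A single fit of the 5 groups used 14 libraries without Sow 2, which the study excluded for low correlations, and tested 15634 genes. Calls required a p, adjusted by Benjamini-Hochberg over all genes, of at most 0.05 and a 2-fold change. Alternatives were DESeq2 1.42.0, other filters and sizes, other subsets of libraries and a replicate block. Relations were tested with 100000 permutations, two-sided, adjusted over 3 relations. Intervals of read ratios are exact 95% intervals of pooled counts, and intervals and floors (3 reads) cover counting error only.

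The members and lists were chosen with earlier results of these data known. Genes named were all member rows, any listed T or NK cell gene called with the 14 libraries (there was none), 9 such genes fixed by name (CD247, ZAP70, CD4, CD8B, PRF1, GZMH, GZMK, NKG7, KLRK1) and the genes most like the members, of which 1 is not reported here. XCL1, BCL11B, TRAT1, SH2D1A, S1PR1, TCF7, LEF1, RUNX3, CD27, JCHAIN, STAR and SLC4A1 were chosen after their values were seen. Each library is from a separate piglet. Same-numbered Milk and M + G libraries deviated together (r of 0.233, 0.510 and 0.425). The labels give numbers and no pairing. Deviations within 3 libraries sum to 0, so 1 pair of like libraries can raise all 3 r without a pairing. Milk and M + G met a rule that asks for 3 shared numbers with each r over 0.1. Milk and M + E2 (-0.34 to -0.06) and M + E2 and M + G (-0.15 to 0.12) did not meet it, and groups with 2 shared numbers, such as Sow and Milk (0.159 and 0.308), could not. Positions came from RefSeq by symbol. The authors' own fold changes were not used.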

Additional observations from a re-analysis of the deposited data

How the results depend on the processing

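The call of GZMA_2 in M + E2 relative to Sow was made in 15 of 23 alternatives with an adjusted p, which ranged from 7.9e-07 (edgeR's exact test) to 0.133. The 15 include the main fit without the 2-fold threshold, which could not change this call, and a fit added after seeing the data. Members called there numbered 0 to 1 when each library was left out, 0 with a minimum count of 3, and 0 with DESeq2, which gave GZMA_2 no adjusted p. The summed copies had log2 fold changes of -3.96 to -2.87 over the libraries whose removal ended the call (adjusted p from 0.0552 to 0.133), and -3.36 with a minimum count of 3 (adjusted p = 0.0538). In M + G relative to Sow, 1 member was called with only the groups compared and with the exact test, with -1.85 for the summed copies in both. In M + E2 relative to Milk, 0 to 1 members were called over the libraries left out, with -2.97 to -1.88 for the summed copies, among them -2.96 (adjusted p = 0.0258) without Milk 3.

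Of the other T and NK cell genes, 0 were called with the 14 libraries. In M + E2 relative to Sow there were 5 with all 3 Sow libraries, 3 with only the groups compared, 3 with the exact test, 0 to 4 over the libraries left out, 6 with the replicate block and 5 on the same libraries without it. In M + G relative to Sow there were 2 with all 3 Sow libraries, 1 with only the groups compared, 1 with the exact test, 0 to 2 over the libraries left out, and 1 with the replicate block and 1 without it. In Soy relative to Sow there were 5 with the replicate block and 3 without it. For any diet there were 1 with all 3 Sow libraries, 0 to 2 over the libraries left out, 2 with the block and 1 without it, and 1 with DESeq2. In Soy relative to M + E2 there was 1 with no filter, with DESeq2 and with the exact test, and 0 to 1 over the libraries left out, as in M + E2 relative to Milk. Besides the genes named with all 3 Sow libraries, TRAT1 (M + E2 and Soy relative to Sow), SH2D1A (Soy relative to Sow), S1PR1 (M + G relative to Sow) and TCF7 (M + E2 relative to Milk, any diet) were called under at least 1 alternative. The numbered libraries without the block and a block on Milk and M + G only were added after seeing the data. With the replicate block on M + G relative to Milk, 0 members were called, as without it. The cause of these changes was not tested. Of 1777 fold changes of the members under alternatives, 73 changed sign, in 33 of 72 pairs of gene and comparison, with main values up to 0.52 in size, and a change of direction of a call was found in none. Depth limits GZMA, which had 0 to 20 reads per library.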
